A study of Mus musculus with 20 samples.

Results

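Monocytes and microglia from the brains of Cxcr4 knockout mice were compared with each other, 3 days after a stroke, across all measured genes. The comparison used 6 of the 20 libraries of the study, 3 of KO monocytes and 3 of KO microglia, and was chosen by genotype and population as the labels give them. Of 16140 genes in the table, 12432 were tested because they reached a value of 10 in 3 or more of its 12 libraries. All animals of the table carried Cxcr4CreER, a Cre recombinase expressed from the Cxcr4 gene and switched on by tamoxifen, and all had a permanent photothrombosis, a cortical stroke made by light-activated clotting. KO monocytes were TdT-positive cells and KO microglia TdT-negative cells of conditional KO animals (genotype Cxcr4CreER KO), and the control groups, with 3 libraries each, were the same sorted cells of Cxcr4CreER control animals, which the design text calls wild type. TdT signal and population therefore coincide, and whether Cxcr4 was deleted in the TdT-negative microglia cannot be read from the labels. The 6 KO libraries came from 4 animals, of which 2 gave both populations. The labels state no further sort marker, no age, no sex and no tamoxifen schedule.

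Microglia are the resident macrophages of the brain. They arise from the embryonic yolk sac, renew themselves locally and keep a set of homeostatic genes, such as the purinergic receptor gene P2ry12, that depends on TGF-beta and on signals of healthy tissue. Classical monocytes are made in the bone marrow, carry the surface antigen Ly6C and the chemokine receptor Ccr2, and enter injured brain from the blood. Cxcr4 is the receptor of the chemokine Cxcl12 and holds blood cell precursors and young leukocytes in the marrow.

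The start regions of the 3 genes that mark the populations are shown because the results turn on these genes. All 3 were found in the RefSeq promoter table (build GRCm38.p6), which gives 250 bases before and 50 after a start site. Letters in capitals match GAGGAAGT (PU.1), TTGCNNAA (C/EBP) or GAAANNGAA (IRF) on either strand, motif forms bound by regulators of myeloid cells, and no 2 matches overlap. Of 27025 promoters of this length, 3.28% hold the PU.1 form, 10.8% the C/EBP form and 8.57% the IRF form. Ly6c2 lies at chr15:75111922-75112221 on the minus strand and holds 2 PU.1 matches, Ms4a6c at chr19:11469118-11469417 on the plus strand with 1 IRF match, and P2ry12 at chr3:59262936-59263235 on the minus strand with 1 C/EBP match. A match describes the letters and is not evidence of binding.
Ly6c2: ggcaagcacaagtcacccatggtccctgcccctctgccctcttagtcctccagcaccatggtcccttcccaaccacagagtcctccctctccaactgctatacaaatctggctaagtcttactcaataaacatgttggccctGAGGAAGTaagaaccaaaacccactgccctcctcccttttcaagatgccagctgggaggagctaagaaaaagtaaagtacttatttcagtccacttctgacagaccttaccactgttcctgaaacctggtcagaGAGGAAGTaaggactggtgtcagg
Ms4a6c: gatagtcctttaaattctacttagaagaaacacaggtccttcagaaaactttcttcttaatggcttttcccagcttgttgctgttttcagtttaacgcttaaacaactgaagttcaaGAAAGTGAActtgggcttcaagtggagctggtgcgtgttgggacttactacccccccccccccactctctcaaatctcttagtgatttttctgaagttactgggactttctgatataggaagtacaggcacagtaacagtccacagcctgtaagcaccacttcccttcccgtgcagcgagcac
P2ry12: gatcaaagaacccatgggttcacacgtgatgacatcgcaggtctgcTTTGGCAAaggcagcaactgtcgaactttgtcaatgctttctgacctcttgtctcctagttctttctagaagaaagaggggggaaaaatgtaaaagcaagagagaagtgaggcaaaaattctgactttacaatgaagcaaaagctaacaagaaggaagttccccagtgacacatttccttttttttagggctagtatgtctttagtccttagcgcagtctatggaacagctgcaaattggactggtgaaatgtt

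The targeted gene came first. Values are normalized counts, which are reads per gene divided by the size factor of the library. Cxcr4 was at 0.912, 0 and 0 in the KO microglia and at 784, 1010.3 and 536 in the KO monocytes, a mean of 777 ± 237 (SD, n = 3) against 0.304 ± 0.526. In the control monocytes it was at 1183, 1332 and 1166. The KO monocytes thus still carried reads of Cxcr4, and values summed per gene cannot tell which exons those reads covered. The log2 fold of KO monocytes over KO microglia was 9.24 (SE 1.10, adjusted p 0.000453), on the scale of log2(value + 1) used throughout. All 3 KO monocyte libraries were above every KO microglia library. Cxcr4 reached the filter through monocyte libraries alone, so its direction follows from that choice. The cells were also sorted by TdT in animals with Cre expressed from Cxcr4, so this difference does not check the labels.

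Ly6c2, a surface antigen of classical monocytes, was at 0 in all 3 libraries in the KO microglia and at 31312, 11001 and 20213 in the KO monocytes, at least 17151-fold higher (adjusted p 0.00045). Where a whole group is at 0, the fold is a lower bound against 3 reads over that group, and it covers counting error only. Ms4a6c, a tetraspan membrane protein of monocytes, was at 2848, 4436 and 3051 in the KO microglia and at 48466, 43647 and 41826 in the KO monocytes (log2 3.72, SE 0.21, adjusted p 4.29e-06), so that it was present in both populations. P2ry12, the ADP receptor that guides microglial processes, was at 37415, 27188 and 34466 in the KO microglia and at 1551, 1517 and 1458 in the KO monocytes (log2 -4.44, SE 0.26, adjusted p 4.29e-06). Ly6c1, a near-identical neighbour of Ly6c2 with which reads can be shared, was at 157, 0 and 0 and at 17.4, 10.9 and 171 in the same groups. The markers thus followed the labels. None of Cxcr4, Ly6c2, Ms4a6c and P2ry12 overlapped between the groups, and each had an exact permutation p of 0.1, the smallest that 3 libraries against 3 allow. With the animal as a fixed term in the fit, Ly6c2, Ms4a6c and P2ry12 kept their calls and Cxcr4 did not (adjusted p 0.0646).

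**Figure D1:**
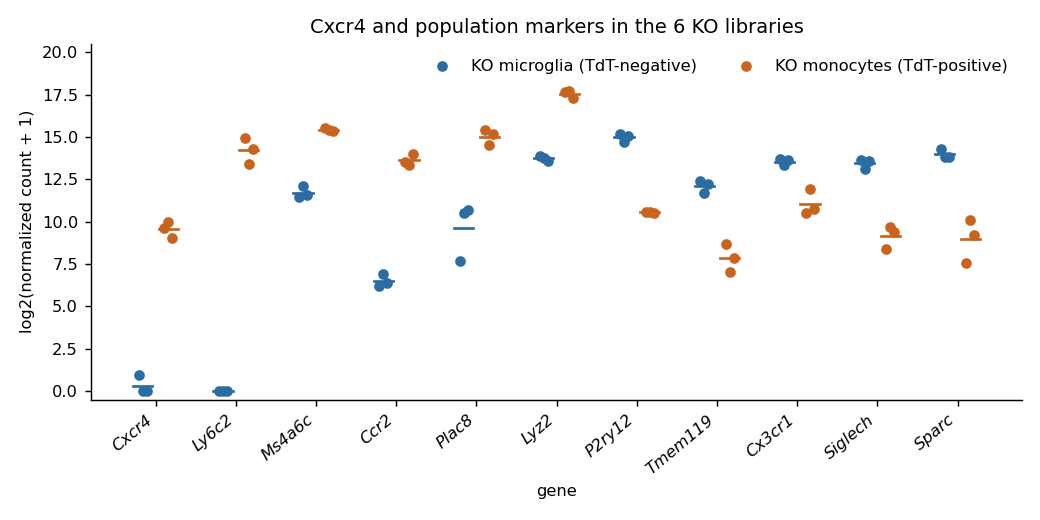
Levels of Cxcr4 and 10 marker genes, as log2(normalized count + 1), in each of the 3 KO microglia (blue) and 3 KO monocyte (orange) libraries, with a line at each mean. Cxcr4 and Ly6c2 lie at or near 0 in all 3 KO microglia libraries, while P2ry12, Siglech and Sparc are lower in the KO monocytes but well above 0.

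Depth differed between the populations. Read totals were 17.7, 9.73 and 20.8 M in KO microglia and 23.7, 56.8 and 30.6 M in KO monocytes, so every monocyte library was deeper. A single read equalled 0.375 to 1.87 normalized counts, and 11864 to 13316 genes were detected per library. With every library of the table thinned to 9.73 M reads, an alternative added after the data were seen, 825 genes were called.

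Limma called 849 of the 12432 genes (6.83%) at a Benjamini-Hochberg adjusted p under 0.05. Of these, 479 (3.85%) were higher in KO monocytes and 370 (2.98%) lower, and without adjustment 2404 had p below 0.05. The groups did not overlap for 3420 genes (27.5%), among them all 849 called genes. Of the called genes, 833 were at least 2-fold, and the median log2 fold was 3.72 among the higher and -5.30 among the lower genes (-5.44 with groups at 0 set to their bound). The genes called higher held 22.0% to 29.1% of the normalized counts of the KO monocyte libraries and 6.12% to 6.63% of those of the KO microglia. Those called lower held 4.08% to 5.49% and 19.6% to 22.1%. Some genes reached the filter through the population in which they are high, and their direction follows from that choice. All values of 10 or more lay in monocytes of either genotype for 216 tested genes (78 called higher) and in microglia for 400 tested genes (102 called lower). In bulk libraries, fewer cells of a type and less RNA per cell cannot be told apart. The count fell to 126 (95 higher and 31 lower) with the animal as a fixed term, a fit that leaves 2 residual degrees of freedom. It was 496, 534 and 482 without KO microglia 1, 2 and 3 and 496 without KO monocytes 1. With scaling by total reads the split turned to 374 higher and 460 lower, and the median log2 fold of all tested genes moved from -0.25 to -0.48. Of the 148 called genes named by the rule for named genes, 98 were called whichever library of the table was left out, and 49 with the animal as a fixed term.

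**Figure D2:**
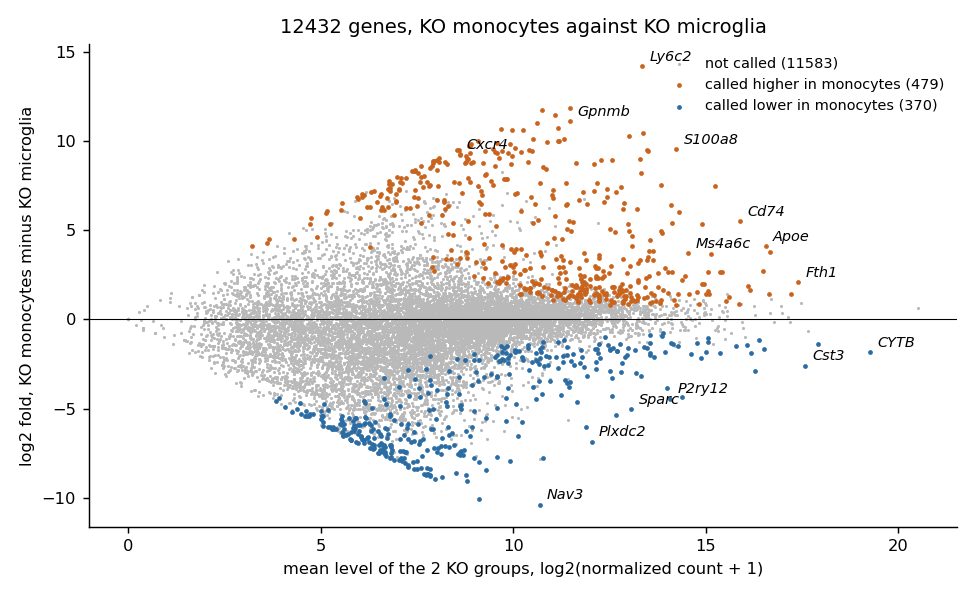
Log2 fold of KO monocytes minus KO microglia against the mean level of the 2 KO groups, log2(normalized count + 1), for 12432 genes. The 479 genes called higher (orange) include Ly6c2, S100a8 and Cd74, the 370 called lower (blue) include Nav3, P2ry12 and Cst3, and the genes not called are in grey.

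The genes that rose most in KO monocytes were all but absent from KO microglia. That follows from their choice by the largest folds among genes without overlap between the groups. Cd24a, Chil3, Gpnmb and Retnlg also reached the filter through monocyte libraries alone, so their direction follows from the filter. Slfn4, a Schlafen gene of activated myeloid cells, was at 0.912, 0 and 0.862 in the KO microglia and at 6993, 4068 and 6154 in the KO monocytes (log2 11.84, SE 1.35, adjusted p 0.000344). Cd24a, a glycosylated surface antigen, was at 0 in all 3 libraries and at 3656, 2801 and 3894, at least 2839-fold higher (adjusted p 7.87e-06). The 3 monocyte libraries lay close together for Cd24a and for Slfn4. Chil3, a chitinase-like secreted protein, was at 0 in all 3 libraries of KO microglia and at 9197, 3050.3 and 833 in the KO monocytes, at least 3588-fold higher (adjusted p 5.83e-05). Here the monocyte libraries themselves spread by more than 10-fold. Gpnmb, a glycoprotein of lipid-laden macrophages, was at 4.56, 1.87 and 0 against 6988, 5107 and 4920.2 (log2 11.12, SE 0.97, adjusted p 4.88e-05), and Retnlg, a secreted resistin-like protein of granulocytes, at 0, 0 and 0.862 against 5927, 1244 and 2197 (log2 11.01, SE 0.96, adjusted p 4.95e-05). Gpnmb varied little among the monocyte libraries, whereas Retnlg was highest in KO monocytes 1.

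The rest of that ranking held surface receptors and enzymes. Plbd1, a phospholipase-like protein of granules, had a log2 fold of 10.72 (SE 1.11), and the decoy interleukin 1 receptor Il1r2 one of 10.15 (SE 1.44). The flippase gene Atp8b4 was at 0 in all KO microglia and at least 1339-fold higher in KO monocytes, and the orphan receptor Gpr171 was at 0.287 ± 0.498 in KO microglia against 1993 ± 604 (SD, n = 3). Both reached the filter through monocyte libraries alone. Cd38, an enzyme that consumes NAD, was lowest in KO monocytes 1, at 1093, 3203 and 3089 in the 3 monocyte libraries against 0, 1.87 and 0 in the microglia. Clec4d, a lectin receptor for mycobacterial glycolipids, and Anxa1, an annexin that restrains inflammation, combined large folds with high levels: Clec4d was at 20963 ± 5502 against 55.4 ± 87.2, and Anxa1 at 16578 ± 4717 against 47.5 ± 69.8. Both had their highest microglia value in KO microglia 1. Among genes with a mean of 5000 or more, the giant scaffold protein gene Ahnak followed at 22564 ± 1952 against 89.7 ± 90.4, as did the MHC class II chain H2-Eb1. All genes named in this paragraph and the one before it were called whichever library was left out. With the animal as a fixed term, H2-Eb1 and Ahnak were not called (adjusted p 0.0758 and 0.0502).

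The genes that fell most in KO monocytes held few reads or none there, which follows from the same way of choosing them. Capn3, Arsb, Armcx2, Tnfrsf17 and Naalad2 also reached the filter through microglia libraries alone, so their direction follows from the filter. Nav3, a neuron navigator protein that binds microtubules, was at 3422, 3472 and 3025 in the KO microglia and at 3.47, 2.25 and 0 in the KO monocytes (log2 -10.40, SE 1.31, adjusted p 0.000675). Capn3, a calcium-dependent protease, was at 1293, 474 and 825 against 0, 6 and 0 (log2 -8.70, SE 1.18, adjusted p 0.000978), and Tjp1, a scaffold of tight junctions, at 504, 700.1 and 971 against 0, 0 and 4.68 (log2 -8.62, SE 1.25, adjusted p 0.00158). For Nav3, Capn3 and Tjp1 at least 1 monocyte library was at 0. Arsb, a lysosomal sulfatase, was at 197, 341 and 546 in the KO microglia and at 0 in all 3 libraries of KO monocytes, at least 567-fold lower there (adjusted p 0.000747). Armcx2 and Cd79b, the latter a B cell receptor chain, were likewise at 0 in all KO monocytes and at least 718-fold and 777-fold lower. The iron exporter Slc40a1 was at 1795, 958 and 1008 against 0, 2.63 and 10.7 (log2 -8.43, adjusted p 0.00981). Upk1b, Efnb2, Tnfrsf17, Galnt12, Tmem144, Ptprm, Ildr2 and Naalad2 completed the 15 largest falls, with adjusted p from 0.013 to 0.0343. Leaving out 1 library ended calls, given here and further on with the largest adjusted p and the library left out. This held for Upk1b (adjusted p 0.104 without KO microglia 1), Efnb2 (adjusted p 0.0526 without KO microglia 1), Cd79b (adjusted p 0.0512 without KO microglia 1), Tnfrsf17 (adjusted p 0.0556 without KO microglia 3), Galnt12 (adjusted p 0.0869 without KO microglia 2), Tmem144 (adjusted p 0.0679 without KO microglia 3), Ptprm (adjusted p 0.0886 without KO microglia 3), Ildr2 (adjusted p 0.0768 without KO microglia 3) and Naalad2 (adjusted p 0.0832 without KO microglia 3). None of the genes in this paragraph was called with the animal as a fixed term (adjusted p from 0.0533 to 0.313).

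Abundant genes of microglia were lower in KO monocytes by smaller folds. Plxdc2, a transmembrane receptor, was at 10029, 7693 and 7230.1 in the KO microglia and at 244, 52.9 and 26 in the KO monocytes (log2 -6.86, SE 1.20, adjusted p 0.00509). Serpine2, a protease inhibitor, was at 9026, 7171 and 6196 against 407, 23.3 and 145 (log2 -6.03, SE 0.89, adjusted p 0.00184), and the myelin and membrane protein Pmp22 at 14632, 11603 and 10939 against 799, 29.3 and 1158 (log2 -5.34, SE 1.01, adjusted p 0.00791). For Serpine2 and Pmp22 the lowest value by far was that of KO monocytes 2. Pros1, a bridging ligand of the Mer receptor family, had a log2 fold of -4.64 (SE 0.69), the tetraspanin Cd81 one of -3.85 (SE 0.34) and Ppan, a ribosome assembly factor, one of -3.77 (SE 0.47). All 6 were called whichever library was left out, and Serpine2, Pmp22 and Cd81 also with the animal as a fixed term.

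All 28 genes of a homeostatic microglia list were tested. In KO monocytes 22 fell, none rose and 6 were not called, and the median log2 fold was -3.22 against -0.25 for all tested genes, of which 2.98% fell. Sparc, a matrix-binding protein, was at 20270.5, 14563 and 14688 in the KO microglia and at 185, 1121 and 604 in the KO monocytes (log2 -5.02, SE 0.52, adjusted p 0.000188). Gpr34, a lysophosphatidylserine receptor, was at 47963, 38149 and 35188 against 1282, 3240.4 and 1768 (log2 -4.37, SE 0.44, adjusted p 0.000156), and Siglech, a sialic acid-binding lectin, at 12763, 9058 and 12532 against 329.7, 823 and 665 (log2 -4.32, SE 0.49, adjusted p 0.000319). For these genes KO monocytes 1 was the lowest library. The protease inhibitor Cst3 remained at 56493, 50561 and 54929.9 in the KO monocytes against 382301, 238459 and 386800.0 in the KO microglia (log2 -2.60, SE 0.22, adjusted p 4.09e-05). The zinc finger factor Sall3 had a log2 fold of -4.74 (SE 0.65) and the adhesion receptor Adgrg1 one of -7.24 (SE 1.80). Among the 6 not called were Sall1, Slc2a5 and Trem2. Sall1, a transcription factor of microglial identity, was at 2033, 2171 and 2437 in the KO microglia and at 135, 228 and 9.35 in the KO monocytes, groups that did not overlap although the test did not pass (log2 -5.01, adjusted p 0.0803). The summed level of the list was 568393 to 798481 in KO microglia and 99938 to 111333 in KO monocytes. The count of 22 was 9 with the animal as a fixed term and 14 without KO microglia 3, and leaving out 1 library ended the call of Adgrg1 (adjusted p 0.119 without KO microglia 3).

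The classical monocyte list moved the other way: of 32 tested genes 28 rose, 1 fell and 3 were not called, with a median log2 fold of 6.62, beside 3.85% of all tested genes that rose. Ccr2, the receptor that brings monocytes into inflamed tissue, was at 72, 119.8 and 81 in the KO microglia and at 12015, 10337 and 16514 in the KO monocytes (log2 7.15, SE 0.49, adjusted p 7.68e-06). Lyz2, lysozyme of myeloid cells, was at 15222, 14142 and 12105 against 207650.0, 212127 and 161584 (log2 3.81, SE 0.21, adjusted p 4.29e-06), and Plac8, a small cysteine-rich protein, at 202, 1475 and 1642 against 43526, 23419 and 36652 (log2 5.40, SE 0.90, adjusted p 0.00398). The 3 monocyte libraries were far above every microglia library in each case. Vcan, a matrix proteoglycan, was at 0 in all KO microglia and at least 633-fold higher (adjusted p 0.00678). The gene that fell was Klf2, a transcription factor of quiescent cells, at 631, 795 and 563 in the KO monocytes against 1929, 1834 and 2207 (log2 -1.59, adjusted p 0.0413). Summed levels were 613578 to 736800.0 in KO monocytes and 47011 to 65566 in KO microglia. With the animal as a fixed term 18 rose and none fell. Ly6c2 and Ms4a6c are members of this list and P2ry12 of the microglia list. Lyz2, Plac8, Klf2 and Sall1 stand outside the rule for named genes and were chosen after their values were seen.

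Of 19 tested neutrophil genes 11 rose in KO monocytes and none fell, beside 3.85% of all tested genes that rose. The median log2 fold was 7.48 (7.83 with groups at 0 set to their bound). Of the 19, 11 reached the filter through monocyte libraries alone, among them 7 of the 11 that rose, so neither the count nor the median supports a direction. S100a8, a calcium-binding alarmin shared by monocytes and neutrophils, was at 0, 2089 and 58.6 in the KO microglia and at 47075, 38567 and 28295 in the KO monocytes (log2 9.54, SE 2.28, adjusted p 0.0267). Among the KO microglia, KO microglia 2 alone carried S100a8 above 100 normalized counts, while control microglia 2 and 3 were at 151 and 154. Its partner S100a9 showed the same order in the KO libraries, at 0, 462 and 13.8 against 14315, 8029 and 7254. Mmp8, a neutrophil collagenase, was at 0 in all KO microglia and at least 763-fold higher (adjusted p 0.000202). Elane, neutrophil elastase, was at 0 in all 3 libraries of KO microglia and at 2161, 306 and 119 in the KO monocytes (adjusted p 0.000761), and in the control monocytes it was at 0 in all 3 libraries. EdgeR did not call Elane, S100a8 or S100a9. S100a8 was also not called without an intensity trend or in the fit on the 6 KO libraries alone. Ly6g, the defining surface antigen of neutrophils, was at 258, 123 and 3.34 in the KO monocytes and 0 in KO microglia (adjusted p 0.0444), and the granule genes Ngp (2564, 26.3 and 0.668) and Ltf (522, 0 and 0) were high in KO monocytes 1 and far lower or at 0 in the other two. Ly6g, Ngp and Ltf were chosen after their values were seen. The summed level of the 21 listed neutrophil genes was 85312, 55541 and 44677 in the KO monocytes, 21960 to 45320 in the control monocytes and 1374 to 4195 in the KO microglia. The labels name no gate against neutrophils, and the part of such cells in the results was not tested. The count of 11 was 1 with the animal as a fixed term and 6 to 9 when 1 of the 6 KO libraries was left out (lowest without KO monocytes 1, where 1 gene fell), and leaving out 1 library ended the calls of S100a8 (adjusted p 0.0813 without KO monocytes 1) and S100a9 (adjusted p 0.0524 without KO monocytes 1).

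**Figure D3:**
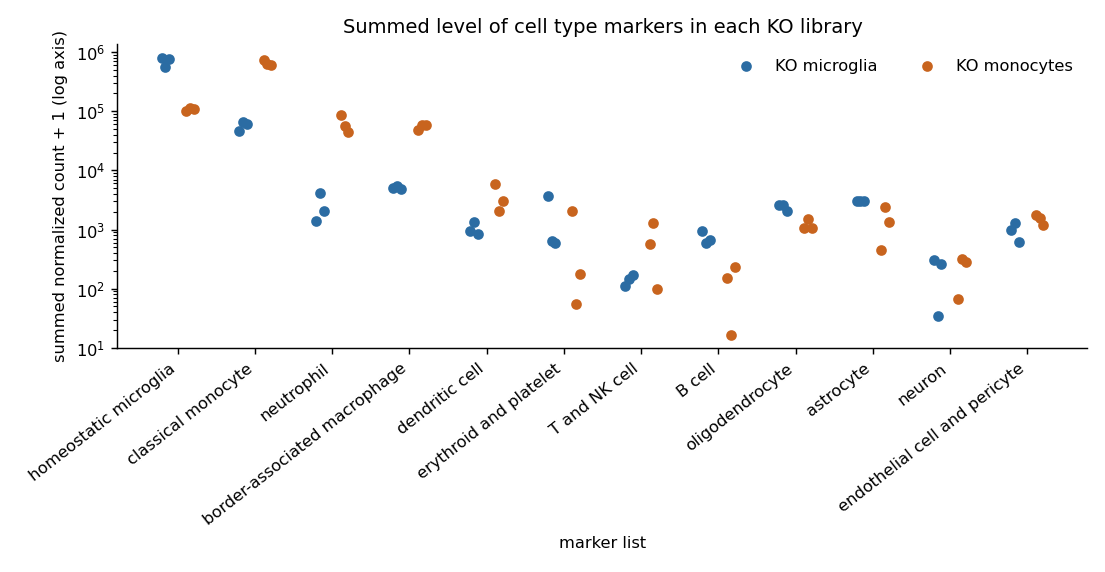
Summed normalized count plus 1 (log axis) of 12 cell type marker lists in each KO microglia (blue) and KO monocyte (orange) library. The homeostatic microglia list is lower and the classical monocyte, neutrophil and border-associated macrophage lists are higher in all 3 KO monocyte libraries, while the neuron, endothelial and T and NK cell lists overlap.

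In the border-associated macrophage list, cells of the brain's surfaces and vessels, 4 of 10 tested genes rose: Ms4a7 was at 658, 849.8 and 378 in the KO microglia and at 33493, 40782 and 44482 in the KO monocytes (log2 6.04, SE 0.42, adjusted p 8.56e-06), and Pf4, platelet factor 4, at 255, 202 and 72.4 against 4850.4, 6609 and 4289.7 (log2 5.05, SE 0.57, adjusted p 0.000319). The defining markers Mrc1 and Cd163 were not called. Dendritic cell markers rose in 2 of 14, the lectin Cd209a (log2 9.61, SE 1.75) and the peptidase Dpp4, at 897, 47.6 and 202 against 0 in all 3 libraries of KO microglia. The dendritic cell share called was 14.3%, beside 6.83% of all tested genes. None of 4 T and NK cell genes and none of 6 neuronal genes was called. Among glial genes, 2 of 9 oligodendrocyte genes and 1 of 8 astrocyte genes fell in KO monocytes. Those shares were 22.2% and 12.5%, beside 6.83% of all tested genes called. The glutamate transporter Slc1a3 was at 2144, 2596 and 1858 in the KO microglia and at 16.5, 12 and 55.4 in the KO monocytes (log2 -6.54, SE 0.85, adjusted p 0.000727), and the myelin cytoskeleton gene Ermn at 295, 124 and 365 against 0 in all 3 libraries. Summed oligodendrocyte markers were 2027 to 2617 in KO microglia and 1076 to 1490 in KO monocytes, and summed astrocyte markers 2984 to 3039 and 445 to 2407. Kdr, a vascular endothelial growth factor receptor, rose (1.82, 1.87 and 0.862 against 207, 333 and 188), alone among 6 vascular genes, and of 5 erythroid and platelet genes Ppbp rose and Gp9 fell. The astrocyte marker Gfap was at 68.4, 0 and 0 in KO microglia and 0, 0 and 157 in KO monocytes. The part of glial RNA in the results was not tested. Leaving out 1 library ended the call of Ppbp (adjusted p 0.131 without KO monocytes 1). Gp9, Ermn and Ppbp were not called by edgeR, nor Gp9 by DESeq2. With the animal as a fixed term no oligodendrocyte, astrocyte, endothelial, erythroid or platelet gene was called, and the border-associated macrophage count of 4 was 2. Adjusted p in that fit was 0.0513 for Slc1a3, 0.0998 for Ermn, 0.118 for Kdr, 0.0958 for Dpp4 and 0.139 for Gp9, while Ms4a7, Pf4 and Cd209a were called. Dpp4 and Ppbp reached the filter through monocyte libraries alone, and Gp9 and Ermn through microglia.

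In the Cxcr4 axis, 4 of 13 tested genes rose and none fell (median log2 fold 0.39), beside 3.85% of all tested genes that rose. Besides Cxcr4 and Dpp4, which trims Cxcl12, these were Mif, a cytokine that also binds Cxcr4, and Cd74, the invariant chain and Mif receptor. Cxcr4 and Dpp4 reached the filter through monocyte libraries alone. Cd74 was at 1674, 3525 and 2717 in the KO microglia and at 161376, 79606 and 114823 in the KO monocytes (log2 5.50, SE 0.33, adjusted p 4.29e-06), and Mif at 1852, 1959.8 and 1789 against 4813, 6347 and 3600.5 (log2 1.36, SE 0.28, adjusted p 0.0142). Mif thus differed by a small fold between groups that did not overlap. The arrestins Arrb1 and Arrb2 and the receptor kinases Grk2 and Grk6 were not called. Mif was not called with 1 of the libraries left out (adjusted p 0.054 without KO monocytes 2), and with the animal as a fixed term Cd74 was the member called.

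Chemoattractant receptors rose in 5 of 15 tested genes and fell in 1 (median 1.80), beside 3.85% and 2.98% of all tested genes. The formyl peptide receptors, which sense bacterial and mitochondrial peptides, were at 0 in KO microglia: Fpr2 was at 797, 451 and 165 and Fpr1 at 344, 469 and 354 in the KO monocytes, at least 388-fold and 320.3-fold higher. Ccr1, a receptor of Ccl3 and its relatives, was at 142, 84.2 and 163 against 3642, 8681 and 5293 (log2 5.45, SE 0.82, adjusted p 0.00203). Cx3cr1, the fractalkine receptor of microglia, fell, at 13198, 10284 and 12604 in the KO microglia and 1489.8, 3947 and 1705 in the KO monocytes (log2 -2.47, adjusted p 0.00509). Ligands rose in 9 of 20 and fell in 3 (median 1.91). Cxcl1, a neutrophil attractant, was at 224, 200.3 and 0.862 against 12135, 6288 and 9079.6 (log2 7.66, SE 2.02, adjusted p 0.0421), and Ccl3, Ccl4 and Ccl12 were the ligands that were lower. The test no longer called, with 1 library left out, Cxcl1 (adjusted p 0.139 without KO microglia 3), Cxcl3 (adjusted p 0.164 without KO microglia 3) and Cxcl14 (adjusted p 0.0969 without KO monocytes 1), and scaling by total reads ended those of Cxcl1 and Cxcl3. The count of 9 was 3 with the animal as a fixed term and 4 or 5 when any 1 of the 6 KO libraries was left out. The count of 5 receptors was 2 with the animal as a fixed term.

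In the MHC class II list 4 of 11 genes rose and none fell (median 1.03): H2-Ab1 was at 525, 898 and 161 in the KO microglia and at 97412, 61457 and 73109.9 in the KO monocytes (log2 7.48, SE 0.64, adjusted p 4.48e-05), and H2-Eb1 at 89.4, 125 and 4.31 against 19138, 19709 and 21578. The third class II chain gene, H2-Aa, was at 225, 498 and 1.72 against 21420.1, 18349 and 20326. KO microglia 3 was the lowest library for all 3 chains. Of 13 class I genes 1 rose, the regulator Nlrc5 (log2 1.31, SE 0.33), with a median of 0.46. That share, 7.7%, is near the 6.83% of all tested genes that were called. Leaving out 1 library ended the calls of H2-Aa (adjusted p 0.0587 without KO monocytes 1) and Nlrc5 (adjusted p 0.136 without KO microglia 1), and Nlrc5 was not called with scaling by total reads. The class II count of 4 was 2 with the animal as a fixed term.

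Of 19 inflammatory cytokine and regulator genes 6 rose and 1 fell (median 0.40). Il10, an anti-inflammatory cytokine, was at 45.6, 0 and 0 in the KO microglia and at 3829, 2512 and 4926 in the KO monocytes (log2 9.97, SE 2.10, adjusted p 0.0147), and Il1rn, the antagonist of the interleukin 1 receptor, at 487, 335 and 333 against 19916, 6525 and 11109.9 (log2 4.89, SE 0.49, adjusted p 0.000147). The prostaglandin synthase Ptgs2 had a log2 fold of 3.73 (SE 0.54), and Il1b and Nfkbia also rose while Il1a was lower. Interferon response genes rose in 6 of 21 and fell in none (median 1.59): Irf7, the master factor of interferon induction, was at 370.2, 708 and 518 against 7828, 2385 and 3194 (log2 2.92, SE 0.50, adjusted p 0.0048), and Rsad2, an antiviral enzyme, at 675, 1301 and 1224 against 12468, 4607 and 7775 (log2 2.90, SE 0.52, adjusted p 0.00581). KO monocytes 1 was the highest monocyte library for both. Ifitm3, a membrane protein that blocks virus entry, had a log2 fold of 2.64 (SE 0.43). Of 13 Toll-like receptor genes 1 rose, the co-receptor Cd14 (log2 1.41, SE 0.33; median -0.05), a share of 7.7% beside 6.83% of all tested genes. Calls that ended without 1 of the libraries were those of Il10 (adjusted p 0.0612 without KO microglia 3), Oasl2 (adjusted p 0.127 without KO monocytes 1) and Cd14 (adjusted p 0.101 without KO monocytes 1). Scaling by total reads ended those of Oasl2 and Cd14. The count of 6 interferon genes was 2 with the animal as a fixed term.

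C-type lectins, which bind microbial sugars and debris, rose in 8 of 14 tested genes and fell in none (median 5.02). Clec4e, a receptor for dead cells and mycobacterial lipid, was at 276, 39.3 and 302 in the KO microglia and at 38712, 17184 and 31766 in the KO monocytes (log2 7.52, SE 1.48, adjusted p 0.0102). Complement genes moved both ways: of 17 tested genes 3 rose and 5 fell (median -0.04). The C1q receptor-like protein Cd93 was at 168, 61.8 and 16.4 against 6117, 12622 and 7461 (log2 7.19, SE 0.93, adjusted p 0.000715) and properdin, Cfp, at 12.8, 7.49 and 63.8 against 615, 1928 and 1325 (log2 5.89, SE 1.03, adjusted p 0.00509), while the 3 C1q chain genes were among those that fell. Fc receptors rose in 1 of 8, the shared signalling chain Fcer1g (log2 1.02), and fell in 1, Fcrls (log2 -3.16, SE 0.34). The Fc receptor share called was 25%, beside 6.83% of all tested genes. Purinergic genes rose in 1 of 14 and fell in 4 (median -1.71): P2ry10 was at 269, 335 and 692 against 0, 5.62 and 0 and P2ry13 at 622, 659 and 1131 against 8012, 6053 and 6703. The test no longer called, with 1 library left out, Clec10a (adjusted p 0.0679 without KO microglia 3) and C3 (adjusted p 0.154 without KO microglia 1). Scaling by total reads ended the calls of C3 and Fcer1g, and the count of 8 lectins was 2 with the animal as a fixed term and 4 to 6 when 1 of the 6 KO libraries was left out. The complement counts of 3 and 5 were both 1 with the animal as a fixed term. EdgeR did not call C3 or Clec10a, and DESeq2 did not call C3.

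In the phagocyte lipid list 6 of 21 rose and 3 fell (median 0.45). For this list and those that follow, 3.85% of all tested genes rose and 2.98% fell. Apoe, the lipid carrier of macrophages, was at 13980.5, 10997 and 7894 in the KO microglia and at 180050.0, 185423 and 183809 in the KO monocytes (log2 4.10, SE 0.41, adjusted p 0.000145), and the galectin Lgals3 at 511, 431 and 578 against 19981, 12829 and 15172 (log2 4.96, SE 0.31, adjusted p 4.29e-06). The 3 monocyte libraries lay close together for Apoe, and neither gene overlapped between the groups. Scavenger receptors rose in 2 of 14, the fatty acid transporter Cd36 (log2 3.78, SE 0.70) and Msr1 (log2 2.60), and fell in 2, Pros1 and the efferocytosis receptor Mertk (log2 -2.58, SE 0.61). Of 18 repair genes 10 rose and 1 fell (median 2.65): Arg1, the arginase of alternatively activated macrophages, was at 153, 9.36 and 199 against 9507, 13299.5 and 10371 (log2 7.32, SE 1.29, adjusted p 0.00523), and the vascular growth factor Vegfa at 32.8, 29.9 and 0.862 against 977, 1389 and 1022 (log2 6.48, SE 1.13, adjusted p 0.00504). Cholesterol genes rose in 5 of 21 (median 1.21), among them Nr1h3, the liver X receptor alpha, at 267, 30.8 and 262 against 0 in all 3 libraries, and the esterifying enzyme Soat1 (log2 1.80). Leaving out 1 library ended the calls of Lilrb4a (adjusted p 0.0574 without KO microglia 3), Msr1 (adjusted p 0.0512 without KO monocytes 1), Mertk (adjusted p 0.0947 without KO monocytes 1), Nr1h3 (adjusted p 0.101 without KO monocytes 1) and Soat1 (adjusted p 0.0843 without KO microglia 1). The count of 5 cholesterol genes was 1 with the animal as a fixed term and 2 to 4 when 1 of the 6 KO libraries was left out.

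The S100, annexin and galectin list rose in 12 of 22 genes and fell in 1 (median 2.91), with S100a6, a calcium sensor, at 125, 11.2 and 80.1 against 8531, 7021 and 5763 (log2 7.13, SE 0.91, adjusted p 0.000702). Cytoskeletal genes rose in 8 of 27 and fell in 1 (median 0.57), again beside 3.85% and 2.98% of all tested genes. Vimentin, Vim, was at 789.7, 2074 and 647 in the KO microglia and at 29500.1, 30077 and 27056 in the KO monocytes (log2 4.82, SE 0.44, adjusted p 7.03e-05), and the actin-binding peptide Tmsb10 had a log2 fold of 3.15 (SE 0.25). Genes of leukocyte adhesion rose in 2 of 23, among them the integrin Itga4 (log2 3.46), and fell in 4, among them the selectin ligand Selplg (log2 -1.69) and Vcam1 (log2 -2.11). The median of that list, 0.17, turned to -0.08 with scaling by total reads. Oxidase and antioxidant genes rose in 9 of 20 (median 1.17): Mgst1, a microsomal glutathione transferase, was at 83, 0 and 0 against 5779, 4437 and 3644 (log2 10.02, SE 1.43, adjusted p 0.00151), and Cybb, the oxidase subunit, at 1036, 2113 and 2810.2 against 17004, 10974 and 16588 (log2 2.99, SE 0.54, adjusted p 0.00581). Calls that ended without 1 of the libraries were those of Capg (adjusted p 0.0653 without KO monocytes 1), Itga4 (adjusted p 0.114 without KO microglia 1), Selplg (adjusted p 0.0804 without KO microglia 3), Vcam1 (adjusted p 0.0556 without KO microglia 1), Ncf4 (adjusted p 0.114 without KO microglia 1) and Sod2 (adjusted p 0.0865 without KO microglia 3), and scaling by total reads ended that of Ncf4. With the animal as a fixed term the cytoskeletal count of 8 was 2 and the oxidase count of 9 was 1, and they were 4 to 7 and 4 to 6 when 1 of the 6 KO libraries was left out.

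Glycolysis and hypoxia genes rose in 8 of 23 (median 0.95), with the hypoxia marker Ndrg1 at 3.65, 5.62 and 0 against 386, 815 and 1503 (log2 7.96, SE 1.22, adjusted p 0.00233). With scaling by total reads 3 rose and 2 fell, and with the animal as a fixed term none was called, and 3 to 5 rose when 1 of the 6 KO libraries was left out. Iron genes split evenly, 2 higher and 2 lower of 12: the ferritin chain Fth1 was at 57616, 74062 and 69091 in the KO microglia and at 316004, 266388 and 261481 in the KO monocytes (log2 2.07, SE 0.14, adjusted p 7.19e-06), opposite in direction to Slc40a1 and to transferrin, Trf (log2 -1.40). Lysosomal genes rose in 1 of 24, the cholesterol carrier Npc2 (log2 1.57), and fell in 3, among them Cst3 and the protease Ctsl (log2 -1.94). The lysosomal share called was 16.7%, beside 6.83% of all tested genes, of which 3.85% rose. Of 25 ribosomal protein genes 2 rose (Rps9 and Rpl8, log2 1.09 and 0.97) and of 22 nuclear respiratory chain genes 3 (Ndufb8, Cox5a and Atp5o, log2 1.13, 1.14 and 1.52). The shares called were 8% and 13.6%, beside 6.83% of all tested genes. The test no longer called, with 1 library left out, Pfkp (adjusted p 0.146 without KO microglia 2), Eno1 (adjusted p 0.119 without KO monocytes 1), Trf (adjusted p 0.0803 without KO microglia 3), Rps9 (adjusted p 0.0585 without KO microglia 2), Rpl8 (adjusted p 0.141 without KO microglia 2), Cox5a (adjusted p 0.181 without KO microglia 1) and Atp5o (adjusted p 0.0718 without KO monocytes 1). Scaling by total reads ended the calls of Pfkp, Eno1, Rpl8, Cox5a and Atp5o.

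Of 26 myeloid transcription factors 3 rose and 4 fell (median -0.27). Bhlhe40, a helix-loop-helix repressor, was at 1.82, 9.36 and 5.17 in the KO microglia and at 3333, 1855 and 2832 in the KO monocytes (log2 8.84, SE 1.39, adjusted p 0.00265), and the aryl hydrocarbon receptor Ahr at 0, 1.87 and 0 against 344, 836 and 379 (log2 8.40, SE 1.10, adjusted p 0.000749), while Bhlhe41, Sall3, Mef2c and Klf2 fell. The lineage factor Spi1, which encodes PU.1, was not called. Immediate early genes rose in 2 of 19 and fell in 6 (median -0.65): Egr1 was at 13192, 16216 and 19267 against 2803, 747 and 3842 (log2 -3.00, SE 0.49, adjusted p 0.00353) and Egr3 at 1954, 1423 and 1009 against 49.5, 13.1 and 127 (log2 -4.97, SE 0.76, adjusted p 0.00232), whereas Fosl2 rose (log2 2.10, SE 0.31). Cell cycle genes fell in 3 of 25 and rose in none (median -1.96), a share of 12% beside 6.83% of all tested genes called. Ccna2, cyclin A2, was at 605, 889 and 236 in the KO microglia and at 10.4, 11.3 and 58.8 in the KO monocytes (log2 -4.63, SE 0.81, adjusted p 0.00518), and the mitotic kinase Cdk1 at 536, 239.6 and 811 against 0, 0 and 106. Growth factor receptors fell in 1 of 9, the microglial survival receptor Csf1r (log2 -2.01, SE 0.33), and TGF-beta genes in 1 of 15, the receptor Tgfbr1 (log2 -1.66, SE 0.37). Those shares were 11.1% and 6.7%, beside 6.83% of all tested genes called. Leaving out 1 library ended the calls of Runx2 (adjusted p 0.0992 without KO monocytes 2), Jun (adjusted p 0.0703 without KO microglia 3), Cdk1 (adjusted p 0.0953 without KO microglia 3), Kif11 (adjusted p 0.0919 without KO microglia 3) and Tgfbr1 (adjusted p 0.0775 without KO monocytes 1). The counts of 6 immediate early and 3 cell cycle genes were 1 and 0 with the animal as a fixed term, and 2 to 4 and 1 to 4 when 1 of the 6 KO libraries was left out. EdgeR did not call Cdk1 or Kif11, and DESeq2 did not call Cdk1.

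**Figure D4:**
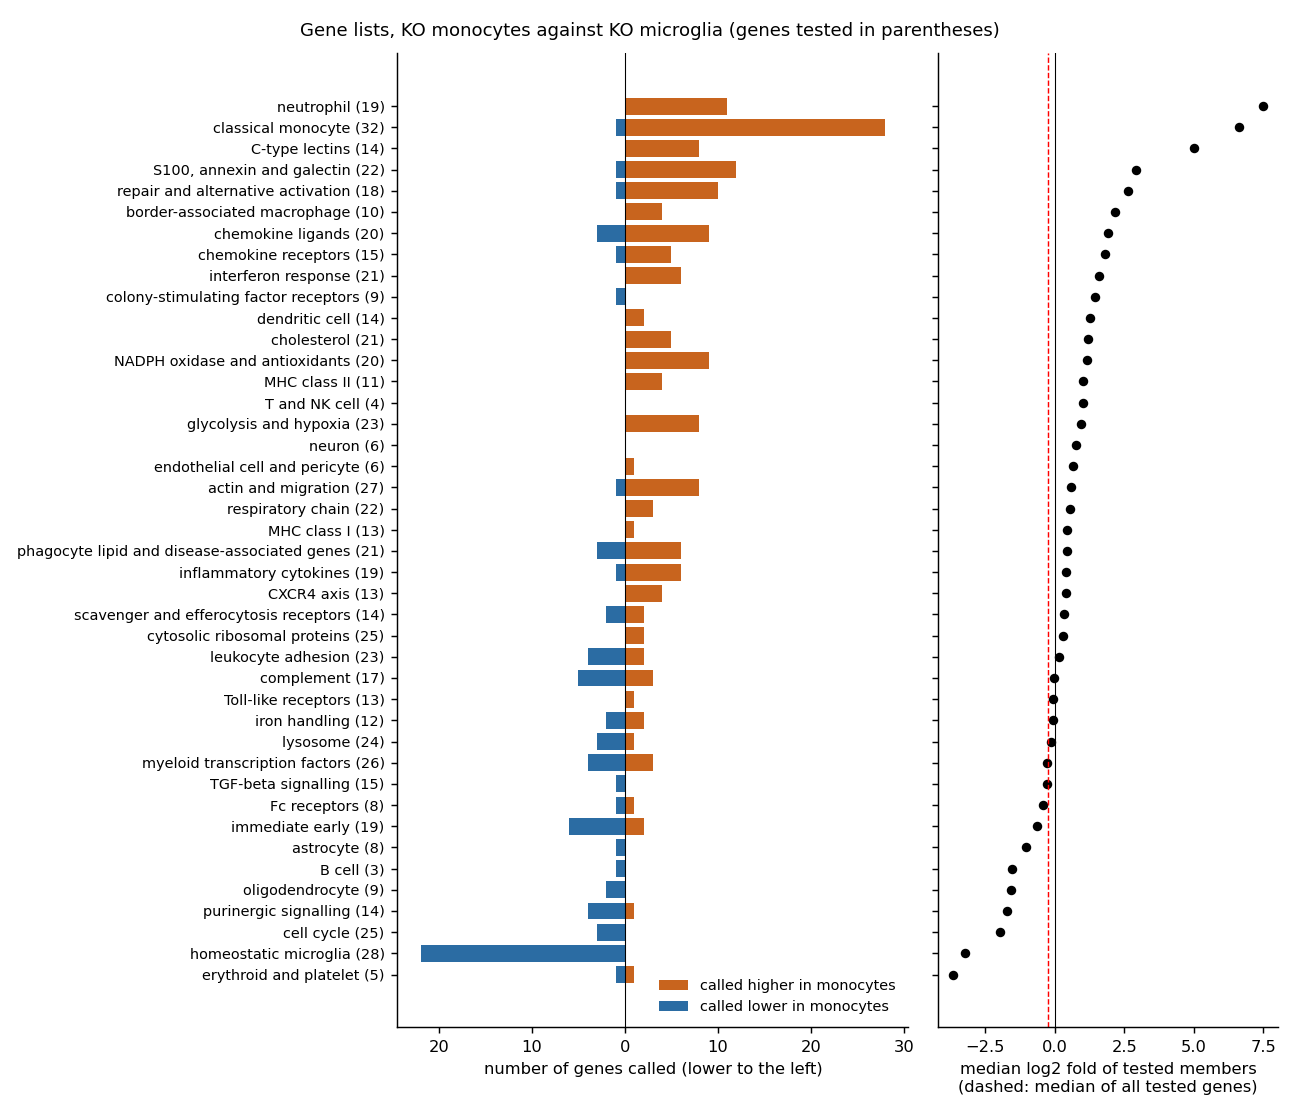
Number of genes called higher (orange) and lower (blue) in KO monocytes for 42 lists, with the number tested in parentheses, and the median log2 fold of each list's tested genes beside the median of all tested genes (dashed line, -0.25). The neutrophil, classical monocyte and C-type lectin lists have the highest medians, and the homeostatic microglia list has the largest number of lower genes.

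The same population contrast in control animals served to ask whether the difference depended on genotype. It shares no library with the KO contrast. Both contrasts use the same estimate of the spread of each gene, so the 2 sets of calls are not independent. Of the 12432 genes 810 were called in controls (6.52%), and 480 were called in both genotypes, all 480 in the same direction. These are 56.5% of the KO calls and 59.3% of the control calls. Of the 849 KO calls, 818 had the same sign in controls. The filter was shared by both genotypes, and 216 tested genes reached it through monocytes alone and 400 through microglia alone. For those genes the direction of a call follows from that choice. How many of all tested genes had the same sign was not counted. Across genes, which are not independent replicates, the 2 sets of folds had a Pearson correlation of 0.573 and a Spearman correlation of 0.47.

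A call in 1 genotype and not in the other does not show a difference, and the difference itself was tested as an interaction. Limma called 0 of the 12432 genes (0%), with a smallest adjusted p of 0.301, and without adjustment 590 (4.75%) had p below 0.05. EdgeR's quasi-likelihood test also called 0, and DESeq2 called 276. Without an intensity trend limma called 9, and 1 without KO monocytes 1 or without control monocytes 3. The 10 genes with the smallest p are given as values, since several of them reached the filter through the group alone in which they are high. Upp1, uridine phosphorylase, was at 452, 264 and 327 in the KO monocytes and at 0 in all libraries of the other 3 groups. Tnfrsf18, a tumour necrosis factor receptor family member, at 285, 128 and 82.1, and the lectin Clec4a4, at 86.8, 106 and 80.8, had the same pattern, as did Elane. Ermn was above 0 in the KO microglia alone. Aldh1l1, an astrocyte enzyme of folate metabolism, was at 285, 73.8 and 214 in the control microglia and at 0 or near 0 in the other 3 groups. Tmem177, Trip13, Rdh10 and Dus4l completed the 10. Of the markers, Ms4a6c had a log2 fold of 2.58 in controls (KO minus control 1.14, SE 0.30, unadjusted p 0.00276, adjusted p 0.791). Ccr2 had one of 10.02 (KO minus control -2.88, SE 0.69, unadjusted p 0.00131, adjusted p 0.621), so that neither passed adjustment. P2ry12 and Cxcr4 had folds of -4.33 and 9.21 in controls, within 1 SE of those in KO. Ly6c2 had a log2 fold of 10.21 in controls and 14.22 in KO (KO minus control 4.01, SE 2.40, unadjusted p 0.12, adjusted p 0.999). Control microglia 1 held it at 393, where all KO microglia were at 0.

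**Figure D5:**
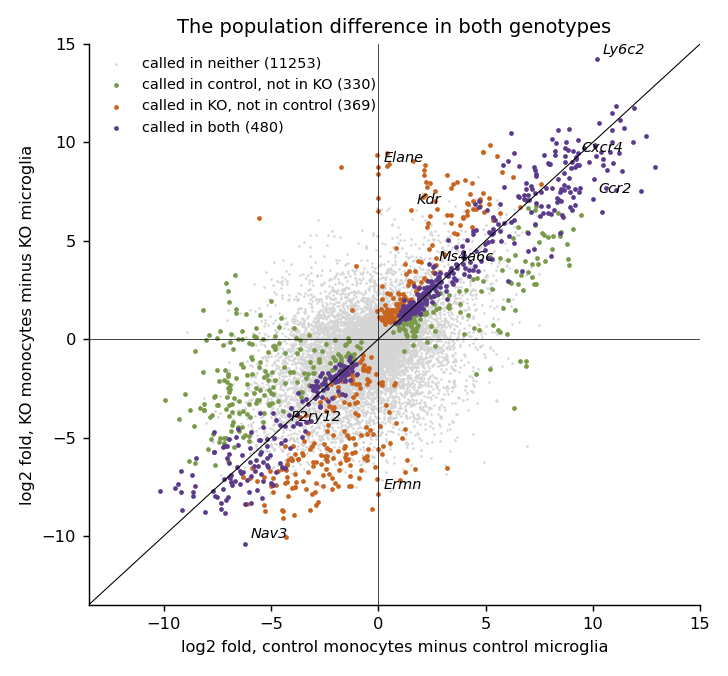
Log2 fold of monocytes minus microglia in KO (vertical axis) against control animals (horizontal axis) for 12432 genes, with the line of equal folds. Genes called in both genotypes (480) lie in the upper right and lower left. Another 369 were called in KO and not in control and 330 in control and not in KO, and no gene passed the adjusted test of the difference.

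In the Cxcr4-GFP animals of the study, a line whose libraries were made with another kit, 533 of the 849 KO calls could be given a fold. Of these, 465 had the same sign, 279 of 298 higher and 186 of 235 lower genes, beside 60.2% of all 7355 genes with a fold. The GFP sample titles carry the same tag, BrKo, as those of the KO animals, and its meaning is not explained in the labels. That table was normalized separately, so no level is compared with it.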

How the data were processed

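The 12 libraries of the Cre table were SMART-Seq2 libraries of polyA RNA, per the labels' protocols. The authors deposited 1 signal value per gene and library, a gene count divided by a size factor of the library. The submitters' processing notes name bcl2fastq 2.20, kallisto and DESeq2, and no genome build or annotation is given in the sources used here. Every value above 0 (100%) was a whole multiple of the smallest in its library within 0.01 reads, so reads were recovered and used for depth, lower bounds and the count tests. Of the gene names, 683 were restored from altered forms, with an X before a leading digit or a dot in place of another sign. Another 24 that appear as dates were left as they are. All columns were assigned to samples through the labels.

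The main test was limma 3.58.1 in R 4.3.3 (intensity trend) on log2(value + 1), with 4 groups of 3 libraries sharing 1 estimate of the spread, two-sided and adjusted by the Benjamini-Hochberg method over 12432 genes. EdgeR 4.0.16, which called 522 genes, and DESeq2 1.42.0, which called 1570, were alternatives on the recovered reads. The members and lists were chosen with earlier results of these data known. Genes named were Cxcr4 and the 3 markers, the 15 largest folds in each direction with a mean of 50 or more, the 10 largest with a mean of 5000 or more, up to 4 called genes per list (or the 2 with the smallest p), and the 10 smallest p of the genotype difference. Predicted genes, clones, pseudogenes and names turned into dates were left out of the rankings. Libraries from 1 animal are paired by design in 2 KO and 2 control animals. Their deviations from the group means correlated at -0.056 to 0.01. The labels do not say how cells were pooled, and p-values measure the spread between these libraries. Lower bounds cover counting error only. Reads of near-identical or overlapping genes cannot be told apart.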

Additional observations from a re-analysis of the deposited data

How the results depend on the processing

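None of the 143 called genes that the rule names for this comparison reversed direction in the alternatives run, of which DESeq2 gave a value for 140 and the filter over 6 libraries for 135. Other genes named in the text are not covered by this statement. The 849 calls of KO monocytes against KO microglia became 126 (95 higher, 31 lower) with the animal as a fixed replicate block, 522 (170 lower) with edgeR and 1570 (800 higher, 770 lower) with DESeq2. Without an intensity trend 309 were higher. Leaving out 1 library gave 482 to 1013 calls, 272 to 550 higher and 165 to 463 lower. For the genotype difference, 0 genes became 9 without a trend, 276 with DESeq2 and 0 to 1 when 1 library was left out. With edgeR 67.4% of calls were higher, against 56.4%. The cause of these shifts was not tested. The fixed block leaves 2 residual degrees of freedom. The other alternatives, which were a pseudocount of 10, a filter over 6 libraries, no filter, upper quartile scaling, scaling by total reads, the block as a random effect (450 higher, 346 lower), the 6 KO libraries alone and the thinned reads, gave counts within 1.5 times of the main ones. Depth limits the lower folds: 58 genes called higher had 0 reads in KO microglia, and 81 called lower had 0 reads in KO monocytes.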

Other observations

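Gene families, some of whose members the lists above hold, were looked at after their values were seen, so their counts are descriptions. They stand beside 6.83% of all tested genes called. Of 13 mRNAs of the mitochondrial genome, which encode subunits of the respiratory chain, 7 fell in KO monocytes (ATP6, COX3, CYTB, ND1, ND2, ND4 and ND4L), none rose and 6 were not called, with a median log2 fold of -1.41 beside -0.25 for all tested genes. They made up 11.4%, 12.1% and 13.5% of the normalized counts of the KO microglia and 2.7%, 4.86% and 4.27% of those of the KO monocytes. The shares in the control animals were 11.8%, 9.22% and 19% in microglia and 3.76%, 4.1% and 3.72% in monocytes. The populations did not overlap in either genotype.

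The Ms4a family, tetraspan membrane proteins of leukocytes that lie together in the genome, rose in 9 of 10 tested genes (median 5.70), and the B cell member Ms4a1 was not called. Its share of the library was 0.885% to 1.14% in KO monocytes and 0.0767% to 0.118% in KO microglia. Ms4a4c was at 499.7, 2417 and 2503 in the KO microglia and at 68169, 48512 and 62630.4 in the KO monocytes (log2 5.35, SE 0.63, adjusted p 0.000425). Members of this family are close in sequence, and reads can be shared among them. Of 5 tested Ifitm genes, which restrict virus entry, 4 rose (median 4.67), of 11 Ifi200 genes, which encode sensors of DNA and related nuclear proteins, 7 (median 2.75), and of 8 Schlafen genes 4 (median 1.51), and none fell in these families. Ifitm6 was at 83, 1.87 and 147 against 6018, 1831 and 4473 (log2 6.80, SE 1.73, adjusted p 0.0357), and Ifi205 at 316, 502 and 238 against 26535, 6454 and 14793 (log2 5.34, SE 1.03, adjusted p 0.00888). In the tumour necrosis factor family 3 of 22 tested genes rose, Tnfrsf18, Tnfsf14 and Tnfsf9, and Tnfrsf17 fell. Among abundant genes outside all lists, Wfdc17, a small secreted protease inhibitor-like protein, was at 5731, 7014 and 3506 in the KO microglia and at 84468, 58808 and 56186 in the KO monocytes (log2 3.65, SE 0.27, adjusted p 1.33e-05). Pdpn, podoplanin, was at 269, 320.1 and 181 against 16914, 24395 and 15213 (log2 6.20, SE 1.37, adjusted p 0.0184). Selenop, a selenium carrier, was lower in KO monocytes, at 26852, 23145 and 23847 in the KO microglia and 6998, 11709.9 and 12039 in the KO monocytes (log2 -1.30, SE 0.24, adjusted p 0.00725), and so was the surface antigen Cd83, at 59415, 42294 and 41372 against 26430.2, 13221 and 20912 (log2 -1.28, SE 0.26, adjusted p 0.0133).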
